A study of Mus musculus with 10 samples.

Results

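The genes described here are the myosin heavy and light chains that make up the thick filament of heart muscle, with the kinase that acts on one of them. They are Myh6, Myh7, Myh7b, Myl2, Myl3, Myl4, Myl7 and Mylk3, chosen by symbol, 8 genes in all. The table of embryonic hearts lists 6 of them among its 15498 genes, without Myh6 and Myh7, and the table of adult hearts lists all 8 among its 15989 genes. RNA was sequenced from mice on the C57BL/6 background with and without Larp7, whose protein binds 7SK, a noncoding RNA that restrains transcription elongation. The embryonic groups were 3 samples of whole heart from Larp7-/- embryos (KO) and 3 from Larp7+/+ embryos (WT), all at E15.5. The adult groups were 2 samples of heart apex from Myh6Cre;Larp7f/f mice (mCKO) and 2 from Larp7f/f mice (CTR), all at 4 months of age. All adult mice thus carry the f/f alleles of Larp7, and only the mCKO mice carry Cre, which the promoter of Myh6 drives in cardiomyocytes. No label ties a sample to its own animal, and p-values therefore measure only how far these samples spread, which may be technical.

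A myosin molecule has a pair of heavy chains, which hold the motor, and on each of them an essential and a regulatory light chain at the lever arm. Myh6 encodes the fast alpha heavy chain of the adult mouse heart and Myh7 the slow beta heavy chain, which prevails in the mouse ventricle before birth and returns under load. Myl2 and Myl3 are the ventricular regulatory and essential light chains, and Myl7 and Myl4 their atrial counterparts. Mylk3 is the cardiac kinase that phosphorylates Myl2, and Myh7b is a further sarcomeric heavy chain.

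Each deposited value is a whole number on a per-million scale. Samples sum to 998498 at the lowest and 1001508 at the highest, which hides the sequencing depth and allows no counting interval. No source used here says whether gene length was corrected for, and levels of genes of different length are therefore not ranked. Sums over marker lists weigh each gene by its value as deposited. In nearly every gene, a knockout value plus the control value of that number gives 1 constant, in 8328 of 8366 E15.5 genes and 8640 of 8656 adult genes with a mean of at least 10 (within 2). A high value in one sample is thus mirrored by a low value in its same-numbered partner, the SDs of both groups are nearly equal, and a deviation cannot be assigned to 1 of the 2 samples. Larp7 itself had 45, 54 and 40 in the KO hearts, against 96, 88 and 103 in the WT hearts. In the adult apex it had 26 and 24 in mCKO, against 26 and 28 in CTR, which gives no check of the adult labels.

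In mm10 the heavy chain genes Myh6 (chromosome 14, 54941921 to 54966927) and Myh7 (54970684 to 54994626) lie in a row on the minus strand with 3756 bases between them. Myh7b lies on chromosome 2 (155611212 to 155634307, plus strand), Myl2 on chromosome 5 (122100951 to 122113472, plus), Myl3 on chromosome 9 (110741861 to 110769798, plus) and Mylk3 on chromosome 8 (85324303 to 85386345, minus). The atrial light chain genes both lie on chromosome 11, Myl7 from 5896637 to 5898782 (minus) and Myl4 from 104550663 to 104595753 (plus). The principal transcripts of Myh6 and Myh7 have 6113 and 6230 bases, so that a share between them hardly depends on length scaling.

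The bases before the start sites of 4 members are shown because the results turn on them. Myh7 and Myh6 are the adult pair of heavy chains, and Myl3 and Myl7 went in opposite directions at E15.5. The sequences are RefSeq's for GRCm38, read along the gene, and leave out bases that an annotated exon of the gene covers. Capitals mark matches, on either strand, to CATTCC, the MCAT motif bound by TEAD factors, or to the CArG box bound by serum response factor.
Myh7, chr14:54994627-54994876, minus strand: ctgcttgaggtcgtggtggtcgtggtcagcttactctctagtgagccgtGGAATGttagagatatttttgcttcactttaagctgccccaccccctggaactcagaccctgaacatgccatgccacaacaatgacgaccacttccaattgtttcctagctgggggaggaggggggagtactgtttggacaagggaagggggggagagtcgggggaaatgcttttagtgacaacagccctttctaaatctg
Myh6, chr14:54966642-54966857, minus strand: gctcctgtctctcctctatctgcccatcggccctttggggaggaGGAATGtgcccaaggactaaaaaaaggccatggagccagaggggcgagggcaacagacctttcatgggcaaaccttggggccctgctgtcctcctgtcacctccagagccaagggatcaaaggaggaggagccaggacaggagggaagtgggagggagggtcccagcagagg
Myl3, chr9:110763428-110763645, plus strand: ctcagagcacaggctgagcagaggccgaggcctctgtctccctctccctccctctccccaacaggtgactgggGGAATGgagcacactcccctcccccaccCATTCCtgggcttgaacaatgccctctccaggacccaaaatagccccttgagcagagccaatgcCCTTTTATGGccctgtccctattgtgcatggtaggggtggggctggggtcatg
Myl7, chr11:5898783-5899032, minus strand: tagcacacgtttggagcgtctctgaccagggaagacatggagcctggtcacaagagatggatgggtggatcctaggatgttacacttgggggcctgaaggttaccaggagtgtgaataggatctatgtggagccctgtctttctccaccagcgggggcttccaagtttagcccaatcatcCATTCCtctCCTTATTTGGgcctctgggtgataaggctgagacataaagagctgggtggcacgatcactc
Of the members, 7 have a RefSeq start site near the start of the principal transcript. For Myh6, Myl3 and Mylk3 that start lies inside the span of the gene given above. An MCAT motif stood in 5 of the 7 windows (Myh6, Myh7, Myl3, Myl7 and Mylk3), against 12.6% of all 32851 windows of 250 bases. A CArG box stood in 2 of the 7, those of Myl3 and Myl7, against 1.47% of all windows. AGATAA, bound by GATA factors, was found in 1 of the 7 (Myh7b), against 9.99%, and neither TATAAA (12.4% of all windows) nor the MEF2 site (2.92%) was found in any of them. Some windows of the members are shorter than 250 bases, and no motif overlapped another of a different kind. These are matches of letters in a window and say nothing of binding. No window of Myl2 is shown, because the nearest of its RefSeq start sites lies 7762 bases from the start of its principal transcript.

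At E15.5 the question was how the developing heart of the knockout differs. The ventricular light chains Myl2 and Myl3 had lower values in KO hearts and the atrial light chains Myl7 and Myl4 higher ones, with most of the difference in the samples numbered 3. By limma, 0 of the 6 listed members passed an adjusted p of 0.05 (1, Myl3, at an unadjusted p under 0.05), whereas 0.632% of all 13609 genes tested did, 0.529% higher and 0.103% lower in KO. In 5 of the 6 members the KO and WT values did not overlap, 3 higher and 2 lower in KO. The same held for 28.1% of all genes tested, 19.3% higher and 8.75% lower.

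Myl2, the ventricular regulatory light chain, had 2149, 1931 and 962 in KO hearts, against 2228, 2446 and 3415 in WT hearts. All KO values lay below all WT values, but KO minus WT was -79 between the samples numbered 1 and -2453 between those numbered 3. Its log2 change was -0.74 (SE 0.40, 95% interval -1.82 to 0.34, adjusted p = 0.505, limma). It was -0.20 without either sample numbered 3. Myl2 passed the test when no filter on low values was set (adjusted p = 0.012, limma), and in none of the other settings tried.

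Myl3, the ventricular essential light chain, had 1895, 1743 and 1183 in KO hearts, against 2185, 2337 and 2897 in WT hearts. The groups did not overlap, and the KO value was 0.867, 0.746 and 0.408 times that of the same-numbered WT sample. This gave a log2 change of -0.64 (SE 0.21, 95% interval -1.08 to -0.20, adjusted p = 0.172, limma). It was -0.31 without either sample numbered 3. Myl3 passed the test with no filter on low values (adjusted p = 0.0365, limma) and without number 2 (log2 -0.75, adjusted p = 0.00297 with KO number 2 left out and 0.00256 with WT number 2, limma). With the block, leaving out either sample takes the same pair out of the comparison, so these are 1 result and not 2. For Myl3 the authors' deposited table has a log2 value of -0.69 with an adjusted p of 0.0377, and for Myl2 one of -0.75 with an adjusted p of 0.103.

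Myl7, the atrial regulatory light chain, had 366, 368 and 571 in KO hearts, against 362, 359 and 157 in WT hearts. The groups did not overlap, yet numbers 1 and 2 were nearly equal between KO and WT, and the difference lay in number 3, where the KO value was 3.64 times the WT value. On the log2 scale the change was 0.64 (SE 0.55, 95% interval -1.35 to 2.63, adjusted p = 0.716, limma) and 0.03 without either sample numbered 3. In the authors' deposited table it is 0.51, with an adjusted p of 0.455.

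Myl4, the atrial essential light chain, had 896, 881 and 1002 in KO hearts, against 854, 870 and 748 in WT hearts, without overlap. Number 3 again stood apart, although the KO value was only 1.34 times the WT value there. Its log2 change was 0.17 (SE 0.18, 95% interval -0.20 to 0.54, adjusted p = 0.719, limma), and 0.04 without either sample numbered 3.

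Mylk3 and Myh7b showed another pattern. Mylk3, the kinase, had 493, 568 and 475 in KO hearts, against 448, 374 and 467 in WT hearts. KO and WT did not overlap, and the widest gap was in number 2, not in number 3, with a log2 change of 0.25 (SE 0.18, 95% interval -0.11 to 0.62, adjusted p = 0.536, limma). Myh7b had 94, 99 and 86 in KO hearts, against 96, 93 and 105 in WT hearts, which overlapped. Its log2 change was -0.08 (95% interval -0.40 to 0.25, adjusted p = 0.864, limma) and became 0.03 without either sample numbered 3.

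**Figure D1:**
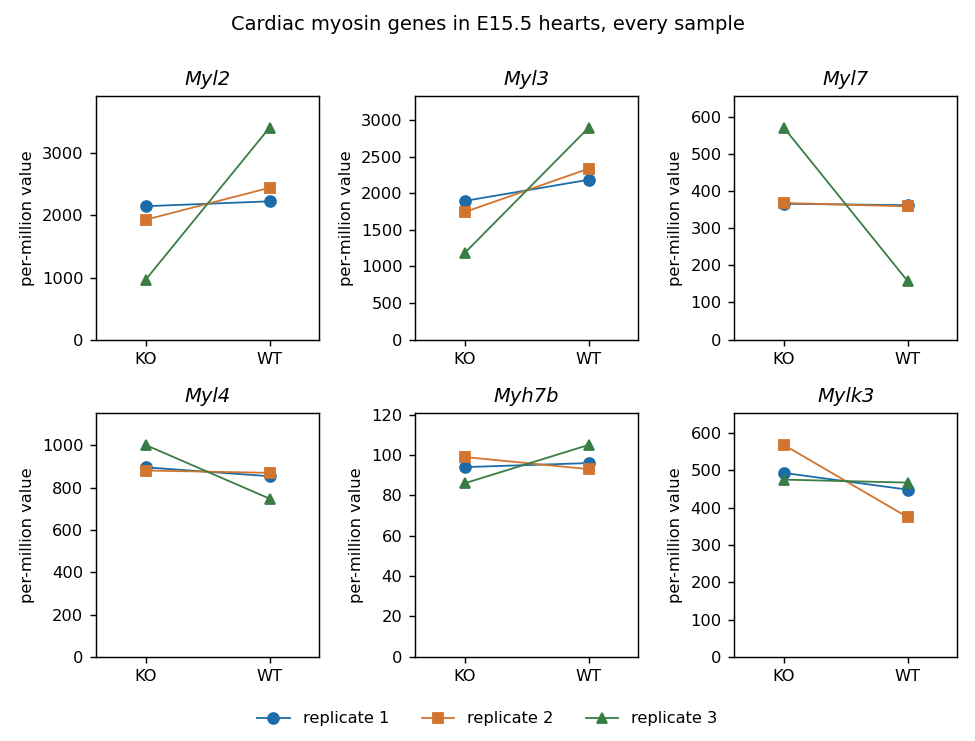
Per-million values of the 6 listed myosin genes in each E15.5 sample, with KO left and WT right, on axes that start at 0. A line joins the samples of the same replicate number. In Myl2, Myl3, Myl7 and Myl4 the line of number 3 is the steepest, and in Mylk3 that of number 2.

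The ratio of an atrial to a ventricular light chain within a sample does not depend on how the sample was scaled. The log2 ratio of Myl7 to Myl2 was -2.55, -2.39 and -0.75 in KO hearts, against -2.62, -2.77 and -4.44 in WT hearts. It averaged -1.90 ± 1.00 in KO and -3.28 ± 1.01 in WT (SD, n = 3 each), a difference of 1.38 (two-sided exact permutation p = 0.1, the smallest that 3 against 3 can give). That test exchanges all 6 samples freely, although the fixed totals tie them into 3 pairs. Exchanging signs within pairs instead, an alternative added after the totals had been seen, gave an exact p of 0.25, the smallest for 3 pairs, with KO higher in 3 of 3. With both samples numbered 3 left out, chosen after the values had been seen, the difference was 0.22. The log2 ratio of Myl4 to Myl3 was -1.08, -0.98 and -0.24 in KO hearts, against -1.36, -1.43 and -1.95 in WT hearts. Its means were -0.77 ± 0.46 in KO and -1.58 ± 0.33 in WT (SD, n = 3 each), a difference of 0.81 (two-sided exact permutation p = 0.1, or 0.25 within pairs), or 0.36 without both samples numbered 3. In both ratios every KO sample lay above every WT sample, and neither design can reach 0.05.

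Some markers of other cells had their extreme values in number 3 as well. Bmp10, a factor of atrial and trabecular muscle, had 146, 146 and 373 in KO hearts, against 142, 143 and 85 in WT hearts, and so resembled Myl7. The summed value of the 7 listed of 8 atrial markers was 2526 to 2627 in KO hearts and 1337 to 1434 in WT hearts. Most of it was Nppa, the atrial natriuretic peptide, which was apart in every number (1852, 1787 and 1681 in KO, against 880, 945 and 1052 in WT, adjusted p = 0.0186, limma). Mybphl, Dkk3 and Stard10 also had their highest KO and lowest WT value in number 3. Nppa, Gja5 and Kcna5 had the reverse. Gja5 had 254, 260 and 191 in KO, against 140, 134 and 204 in WT, and Kcna5 had 21, 25 and 20, against 21, 18 and 22. Gja5, Kcna5 and Stard10 overlapped between the groups. For the 3 listed of 6 ventricular markers the sum was 287 to 387 in KO and 391 to 494 in WT, without overlap. That gap lay in Fhl2, a LIM protein (264, 255 and 195 in KO, against 308, 318 and 378 in WT), while the ventricular factor Irx4 had 119, 105 and 90 in KO, against 79, 94 and 110 in WT, which overlapped. Sums over 3 listed of 6 fibroblast markers were 2362 to 3158 in KO and 1557 to 2354 in WT, and over 6 erythroid markers 4633 to 9211 in KO and 3006 to 7583 in WT, where the ranges overlapped. The 5 listed of 8 cardiomyocyte markers summed to 13612 to 15675 in KO and 16441 to 18506 in WT, so that the labelled tissue carries its defining markers. Of the 5 cardiomyocyte markers tested 1 was called, against 0.632% of all genes tested, and 4 changes were negative and 1 positive. The call was Tnnc1, cardiac troponin C, with 746, 640 and 576 in KO, against 1018, 1124 and 1189 in WT (log2 -0.77, adjusted p = 0.0449, limma). The positive change was that of Ttn, with 2784, 2564 and 2333 in KO, against 2240, 2460 and 2691 in WT, which overlapped (log2 0.06). Of the 3 fibroblast markers tested 1 was called, the receptor Pdgfra, with 115, 115 and 118 in KO, against 71, 72 and 69 in WT (log2 0.71, adjusted p = 0.0296, limma). The other 2, Col1a1 and Col1a2, overlapped between the groups. Of the 2 smooth muscle and pericyte markers tested 1 was called, Rgs5, with 39, 47 and 42 in KO, against 83, 76 and 80 in WT (log2 -0.89, adjusted p = 0.00694, limma). The other, Pdgfrb, had 83, 88 and 104 in KO, against 83, 77 and 61 in WT, which overlapped (log2 0.32). The 2 thus went in opposite directions. The calls of Nppa, Tnnc1, Pdgfra and Rgs5 were lost with no rounding variance, with no pooling and with a mean of at least 10. In each of those settings 0 of all E15.5 genes were called. In whole hearts a smaller share of ventricular muscle and less RNA of a gene per cell cannot be told apart, and the part of these markers in the light chain values was not tested.

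Among 2185 other genes with a mean of at least 100 at E15.5, those with values most like Myl7 over the 6 samples were Lama5, Col1a1, Slc2a1, Col1a2 and Megf6 (Pearson r between 0.992 and 0.999 on the log2 scale). Lama5, a laminin chain, had 104, 106 and 165 in KO hearts, against 101, 98 and 40 in WT hearts. Slc2a1, a glucose transporter, had 290, 309 and 480 in KO, against 272, 253 and 82 in WT. All 5 had their highest KO value and their lowest WT value in number 3. Myl4 had an r of 0.972 with Myl7, Myl3 one of -0.87 and Myl2 one of -0.88, while that of Mylk3 was 0.05. These values share libraries and the fixed totals, and are given as a description.

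In the adult apex the question was how the heart differs when Larp7 is deleted in cardiomyocytes. Myh7, the slow heavy chain, averaged 991 ± 140 in mCKO apex and 369 ± 140 in CTR apex (SD, n = 2 each). Myh6, the main adult heavy chain, averaged 16957 ± 72.1 in mCKO and 19274 ± 72.8 in CTR, and the ventricular light chains had smaller log2 changes. By limma 1 of the 8 members was called, which was Myh7, against 3.29% of all 14833 genes tested, 2.34% higher and 0.951% lower in mCKO. The groups did not overlap in 4 of the 8 members, 2 higher and 2 lower in mCKO, against 42.1% of all genes tested, 29.3% higher and 12.8% lower. With 2 samples a group and fixed totals a gene has 1 residual degree of freedom, and the fit takes nearly all of its spread from other genes of similar level.

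Myh7 had 1090 and 892 in mCKO apex, against 270 and 468 in CTR apex. The groups did not overlap, and mCKO was 4.04 times CTR in number 1 and 1.91 times in number 2. The log2 change was 1.47 (SE 0.14, 95% interval 1.18 to 1.75, adjusted p = 3.28e-16, limma). That p rests on pooled spread, and the call held in 7 of 13 other settings. It was lost with no replicate block (adjusted p = 0.118, limma), with no rounding variance (adjusted p = 0.616, limma) and with neither (adjusted p = 0.232, limma). With each gene's own spread alone the call was lost as well (adjusted p = 0.783, limma). In that setting 0 of all 14833 genes were called, so the loss is not particular to Myh7. It was also lost with no block and mCKO number 1 (adjusted p = 0.778, limma) or number 2 (adjusted p = 0.684, limma) left out. The change stayed positive in all 13, between 1.07 and 1.87. In the authors' deposited table Myh7 stands at 1.37 on the log2 scale, with an unadjusted p of 4.73e-09. Nppa had 1189 and 1409 in mCKO apex, against 321 and 100 in CTR apex, and was not called (adjusted p = 0.716, limma). The sum over 6 erythroid markers was 1270 to 2879 in mCKO and 127 to 1482 in CTR, ranges that overlap. Sums over 6 fibroblast markers were 1710 to 1807 in mCKO and 1126 to 1223 in CTR, and over 6 macrophage markers 576 to 577 in mCKO and 492 to 493 in CTR, both without overlap. Of the 6 markers in each list 0 were called, and groups did not overlap in 42.1% of all genes tested. Pdgfra (50 and 44 in mCKO, against 44 and 51 in CTR), Csf1r and Cd68 (18 in all samples) overlapped between the groups. Sums over 8 cardiomyocyte markers were 33000 to 34140 in mCKO and 33641 to 34778 in CTR, which overlapped. Lower sums in mCKO, without overlap, were those of 6 endothelial markers (652 to 680, against 715 to 742 in CTR). The same held for 6 smooth muscle and pericyte markers (729 to 755, against 758 to 783). In these 3 lists also 0 markers were called. The part of any of these cell types in the Myh7 values was not tested.

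Myh6 had 17008 and 16906 in mCKO apex, against 19222 and 19325 in CTR apex. The samples of a group lay close together and the groups were well apart, at 0.885 and 0.875 times CTR in numbers 1 and 2. The log2 change was -0.18 (SE 0.12, 95% interval -0.42 to 0.05, adjusted p = 0.599, limma). It passed the test only without both the replicate block and the rounding variance (adjusted p = 0.00483, limma), in 1 of 13 other settings, and the authors' deposited table gives an unadjusted p of 0.00787. Myh6 is also the gene whose promoter drives Cre in the mCKO mice.

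Myh7 as a share of Myh7 plus Myh6 was 6.02% and 5.01% in mCKO apex, against 1.39% and 2.36% in CTR apex. The mean was 5.52 ± 0.72% in mCKO and 1.88 ± 0.69% in CTR (SD, n = 2 each), a difference of 3.64 percentage points (two-sided exact permutation p = 0.333, the smallest that 2 against 2 can give, or 0.5 within the 2 pairs). Leaving out any 1 sample gave a difference of 3.14 to 4.15 percentage points.

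**Figure D2:**
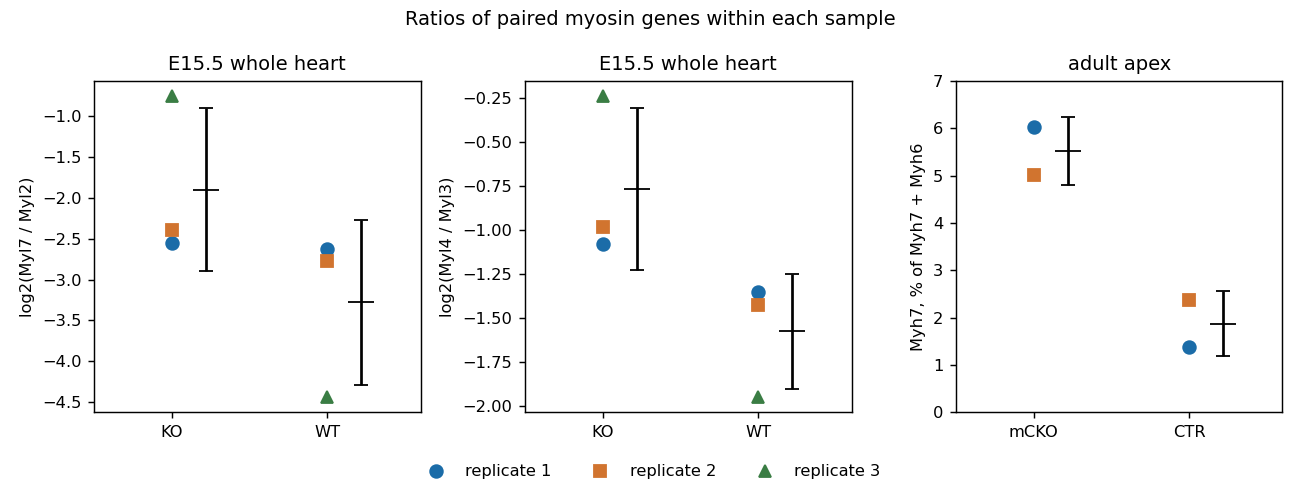
Ratios of paired myosin genes in each sample, with the knockout group left of its control and the mean ± SD beside the points. The KO sample numbered 3 has the highest and the WT sample numbered 3 the lowest log2 ratio in both E15.5 panels, and the adult Myh7 share is 5.01% or more in mCKO and 2.36% or less in CTR.

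Both heavy chain genes and Myh7b hold a microRNA in an intron, and the mature sequences are shown because those in Myh6 and Myh7 have an entry of their own in the adult table. Capitals mark the seed, bases 2 to 8, and the sequences are RefSeq's.
mmu-miR-208a-3p (in Myh6): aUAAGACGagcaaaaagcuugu
mmu-miR-208b-3p (in Myh7): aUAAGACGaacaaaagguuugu
mmu-miR-499-5p (in Myh7b): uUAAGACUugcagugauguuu
The seed UAAGACG is shared by miR-208a-3p and miR-208b-3p, and that of miR-499-5p is UAAGACU. The entry Mir208b had 6 and 15 in mCKO apex, against 24 and 15 in CTR apex, and so did not follow its host gene Myh7. Mir208a was listed at 1 in all 4 samples. The libraries were made from total RNA and not labelled as small RNA, so these entries count fragments at the hairpin loci and are no measure of the mature microRNAs.

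The ventricular light chains were close between the adult groups. Myl2 had 8818 and 8895 in mCKO apex, against 9416 and 9339 in CTR apex, without overlap. Its log2 change was -0.08 (95% interval -0.32 to 0.16, adjusted p = 0.915, limma). Myl3 had 5666 and 5559 in mCKO apex, against 5447 and 5553 in CTR apex, again without overlap but with mCKO minus CTR at 6 in number 2. For Myl3 the log2 change was 0.03 (95% interval -0.22 to 0.27, adjusted p = 1, limma), and its sign turned with median-of-ratios scaling (-0.03), as it does in the authors' deposited table (-0.03).

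The atrial light chains were almost absent from the adult apex. Myl7 had 1 and 1 in mCKO apex, against 1 and 0 in CTR apex, and Myl4 had 3 and 3 in mCKO, against 1 and 3 in CTR. Values of this size lie at the resolution of the rounding, and no fold between the groups is read from them. Bmp10 was likewise at 1 and 0 in mCKO and at 0 in both CTR samples.

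Mylk3 had 480 and 558 in mCKO apex, against 590 and 512 in CTR apex, which overlapped (log2 change -0.09, 95% interval -0.36 to 0.19, adjusted p = 0.933, limma). Myh7b had 115 and 112 in mCKO apex, against 109 and 112 in CTR apex, which met at 112. Its log2 change was 0.04 (95% interval -0.25 to 0.33, adjusted p = 0.998, limma), and -0.02 with median-of-ratios scaling.

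**Figure D3:**
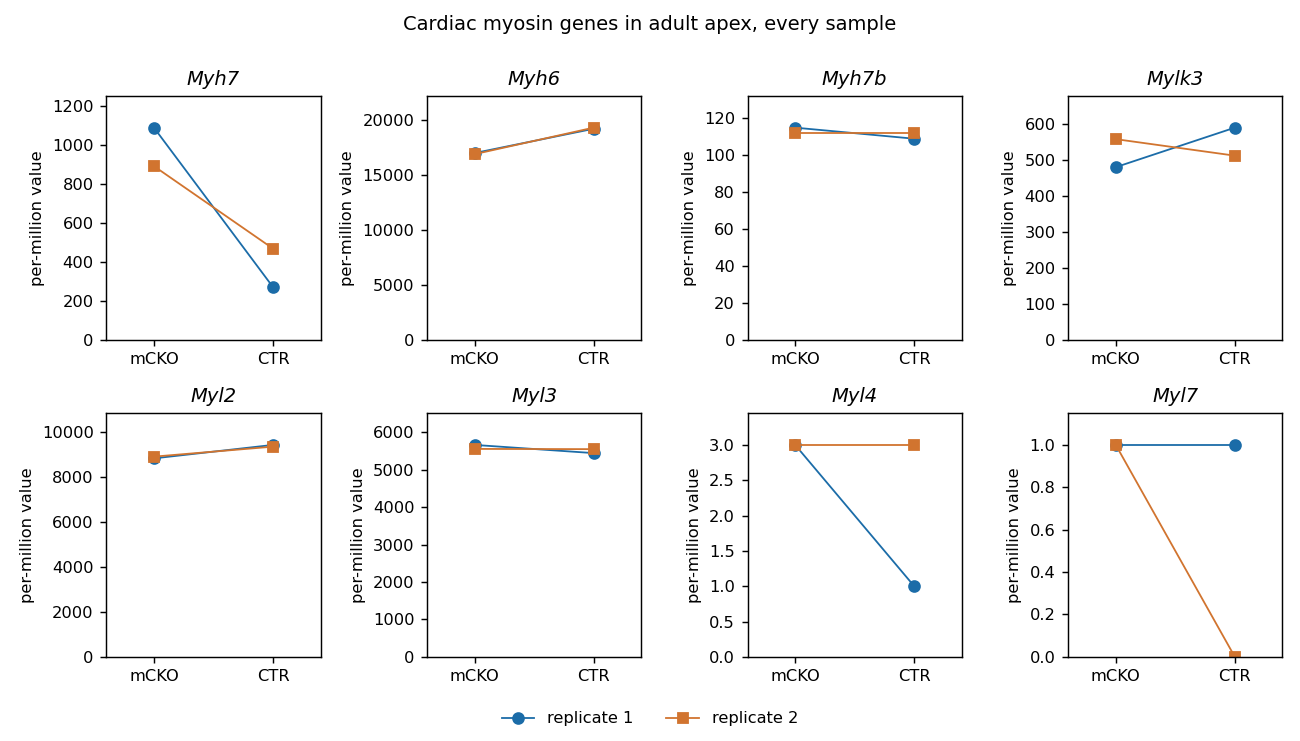
Per-million values of the 8 myosin genes in each adult apex sample, with mCKO left and CTR right, on axes that start at 0. Lines join samples of the same replicate number. Myh7 is at 892 or more in mCKO and at 468 or less in CTR, while Myl4 and Myl7 reach no more than 3 and 1.

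**Figure D4:**
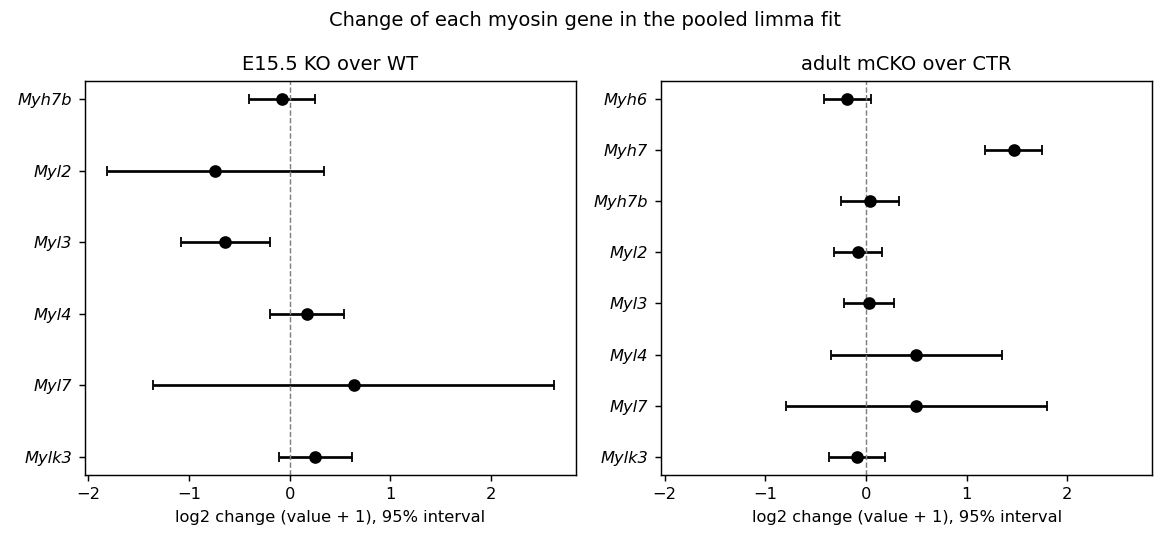
Log2 change of each myosin gene on the log2(value + 1) scale, with its 95% interval from the pooled limma fit, for KO over WT at E15.5 and mCKO over CTR in the adult. The adult intervals rest on spread drawn from other genes. Of these members Myh7 in the adult is the one called by adjusted p.

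Set side by side, the members of the E15.5 and adult tables are given by their ranges only, since the tables were scaled separately and hold different parts of the heart, and no test was made. Myl2 lay between 962 and 3415 at E15.5 and between 8818 and 9416 in the adult apex, and Myl3 between 1183 and 2897 and between 5447 and 5666. Myl4 lay between 748 and 1002 in the embryonic whole hearts and at 1 to 3 in the apex. Myh7b lay between 86 and 105 at E15.5 and between 109 and 115 in the adult, and Mylk3 between 374 and 568 and between 480 and 590.

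Other genes of the myosin system were taken from lists made by function. Of the other myosin heavy chains, 0 of 5 tested were called at E15.5, against 0.632% of all genes. All 5 changes were positive (median 0.35, against 0.107 over all genes tested). Myh1, Myh3, Myh8 and Myh14 had values of 6 or less in every sample, near the resolution of the rounding. Nothing is therefore read from the shared direction or from the median. Myh8, a perinatal skeletal form, had 4 in each KO heart, against 2, 4 and 3 in WT hearts. Myh10, a nonmuscle heavy chain, had 655, 698 and 716 in KO hearts, against 607, 564 and 546 in WT hearts (log2 0.27, adjusted p = 0.505, limma). In the adult 1 of 4 was called (3.29% of all genes), Myh10, with 67 and 49 in mCKO apex, against 30 and 48 in CTR apex (log2 0.58, SE 0.16, adjusted p = 0.0103, limma). Its groups were separated by a single unit, the median over the list was 0.07 against 0.076 over all genes tested, and the call held in 7 of 13 other settings.

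Among the other light chains the calls were 0 of 3 at E15.5 (median -0.27, against 0.107 over all genes) and 0 of 7 in the adult (median 0.30, against 0.076). Myl9, a smooth muscle and nonmuscle regulatory light chain, had 862, 883 and 911 in KO hearts, against 1088, 1068 and 1040 in WT hearts (log2 -0.27, adjusted p = 0.524, limma). Myl1, a light chain of skeletal and fetal muscle, had 80, 75 and 88 in KO, against 63, 67 and 54 in WT (log2 0.40, adjusted p = 0.257, limma). In the adult Myl12a, another nonmuscle regulatory light chain, had 320 and 325 in mCKO apex, against 256 and 251 in CTR apex (log2 0.35, adjusted p = 0.204, limma). Myl6, a nonmuscle essential light chain, had 136 and 128 in mCKO, against 95 and 103 in CTR (log2 0.41, adjusted p = 0.107, limma). Each of these was without overlap between the groups and did not pass the test. Groups did not overlap in 28.1% of all genes tested at E15.5 and in 42.1% in the adult. The part of the fibroblast and macrophage markers given above in these nonmuscle values was not tested.

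Of the light chain kinases and the phosphatase 0 of 3 passed at E15.5, against 0.632% of all genes, and 1 of 9 in the adult, against 3.29%. The medians were 0.05 at E15.5 and 0.06 in the adult, against 0.107 and 0.076 over all genes. The adult call was Mylk4, a further light chain kinase of muscle, with 196 and 236 in mCKO apex, against 338 and 297 in CTR apex (log2 -0.56, SE 0.14, adjusted p = 0.00624, limma). It was lower in both numbers, and the call held in 9 of 13 other settings. Ppp1cb, the catalytic subunit of the myosin phosphatase, had 679, 868 and 763 in KO hearts, against 908, 720 and 824 in WT hearts, which overlapped. Ppp1r12c, a targeting subunit, had 54, 52 and 55 in KO, against 52, 54 and 50 in WT.

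Of the genes for myosin binding and thick filament assembly 0 of 10 were called at E15.5 (median 0.20, against 0.107 over all genes) and 2 of 10 in the adult, both higher (median 0.35, against 0.076). Over all genes tested 0.632% were called at E15.5, and 2.34% were called as higher in the adult. Mybpc3, the cardiac myosin-binding protein C, had 4727 and 3909 in mCKO apex, against 2767 and 3584 in CTR apex (log2 0.45, SE 0.13, adjusted p = 0.0183, limma), a call that held in 6 of 13 other settings. Mybpc2, the fast skeletal form, had 53 and 44 in mCKO apex, against 17 and 25 in CTR apex (log2 1.19, SE 0.16, adjusted p = 2.67e-10, limma), and its call held in 9 of 13. At E15.5 Mybpc3 had 2100, 2288 and 1971 in KO hearts, against 2370, 2184 and 2500 in WT hearts, which overlapped, and the chaperone Hsp90aa1 had 980, 1015 and 1045 in KO, against 1085, 1050 and 1020 in WT. All 4 adult calls outside the members were lost with no replicate block, with no rounding variance and with neither (lowest adjusted p = 0.0624, limma). They were also lost with no pooling of variance, where 0 of all genes were called. The call of Mybpc3 was lost with median-of-ratios scaling too. With no block, the log2 change of Myh10 was 0.36 without mCKO number 1 and 0.25 without CTR number 1. Without mCKO or CTR number 2 it was 0.80 or 0.91. In the same fits that of Mybpc3 was 0.31 and 0.26, against 0.59 and 0.64.

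Of the regulators of cardiac myosin genes 0 of 12 passed at E15.5 (median 0.05) and 0 of 20 in the adult (median 0.12). Mef2a, a MADS-box factor of muscle genes, had 411, 392 and 384 in KO hearts, against 373, 392 and 400 in WT hearts. Purb, a repressor of heavy chain promoters, had 344, 431 and 350 in KO, against 433, 346 and 427 in WT. In the adult Tead1, a factor that binds MCAT motifs, had 200 and 192 in mCKO apex, against 173 and 182 in CTR apex (log2 0.14, adjusted p = 0.854, limma). Mef2d had 158 and 151 in mCKO, against 167 and 175 in CTR (log2 -0.15, adjusted p = 0.847, limma).

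Among 1354 other genes with a mean of at least 100 in the adult, Fstl1, Sparc, Ccnd2, Rtn4 and Ccdc80 had values most like Myh7 over the 4 samples (Pearson r of 0.996 or more on the log2 scale). Sparc, a matrix glycoprotein, had 710 and 603 in mCKO apex, against 321 and 428 in CTR apex. Fstl1, a secreted glycoprotein, had 226 and 194 in mCKO, against 82 and 115 in CTR. Within the members Myl2 had an r of -0.97 with Myh7 and Myh6 one of -0.91. Over 4 mirrored samples such values are set mostly by the difference between the groups.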

How the data were processed

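Total RNA was extracted with a column kit and DNase, per the labels' protocols. HISAT2, HTSeq and mm10 stand in the list of tools and builds, per the submitters' processing notes, with no role or setting stated. The authors deposited, per table, a score for each gene and sample, which is a per-million value rounded to whole numbers, and their own log2 fold changes and p-values, per the file headers. Each table was fitted alone (R 4.3.3, limma 3.58.1) after a log2(value + 1) transform and after leaving out genes that reached 1 in fewer samples than a group holds, with the replicate number as a block, the variance of rounding (0.0833) added, and eBayes with trend and robust options. P-values were adjusted by Benjamini-Hochberg over all genes tested, at 0.05. The prior's degrees of freedom were 27.54 (median) for the embryonic table and unlimited for the adult one.

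The labels do not pair the replicate numbers. Across genes, same-numbered samples deviated from group means with a correlation of -0.82 to -0.80, set by the fixed totals, which is the ground for the block. All tested genes together had a median log2 change of 0.107 (E15.5) and 0.076 (adult), which median-of-ratios scaling brought to 0.044 and 0.017. The fits were also run on simulated data, but the outcome is not given and no result here rests on it. For the adult call of Myh7 each setting that ends it is given. The other adult calls come with the count of settings in which they held. Ratios were compared by exact permutation tests (scipy 1.17.1), over samples and within replicate numbers. The Myl7 to Myl2 ratio was not formed in the adult, where a CTR value of Myl7 is 0. From the adult values, 2 entries with a repeated name were left out of the check of totals.

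The members, lists and settings were chosen with earlier results of these data known. All members are named; of each pathway list the called genes without overlap, up to 4, or otherwise the 2 of the highest mean; and the 5 genes most like Myl7 and Myh7. Marker genes were named after their values were seen. Coordinates are from GENCODE vM21 and sequences from RefSeq, both on GRCm38 (mm10); a promoter window was found for all 8 members.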

Additional observations from a re-analysis of the deposited data

Results flagged for a closer look

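Myl3 differed in direction between the models. At E15.5 every KO value lay below every WT value, with a mean difference of -866, and in the adult apex every mCKO value lay above every CTR value, with a mean difference of 112.5. The difference between the models was not tested, since the tables were scaled separately, the tissues differ and the adult sign turns with median-of-ratios scaling.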

How the results depend on the processing

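Over the 8 members and all other settings, 173 of 192 results kept their direction and their side of the threshold. A further 2 stayed uncalled with a log2 change of 0 (adult Myl4 without CTR number 1 and Myl7 without CTR number 2). Of the rest, 6 were weaker (all of Myh7), 5 were stronger and 6 changed sign. At E15.5, leaving out KO or WT of the same number removes the same pair, and these counts hold both results. Only adult Myh7 was called in the reported fit, so for all others the side kept was that of no call. Changed signs were those of Myh7b at E15.5 without either number 3 (range with 1 sample left out -0.1575 to 0.02961), of adult Myh7b (-0.02385) and Myl3 (-0.03349) under median-of-ratios scaling, and of adult Mylk3 without number 1 of mCKO (0.02179) or CTR (0.01548) with no replicate block. The count of members called at E15.5 became 2 with no filter on low values (Myl2 and Myl3) and ranged from 0 to 1 with 1 sample left out. In the adult it was 0 with no replicate block, with no rounding variance and with no pooling, and 0 to 1 with 1 sample left out and no block; without block and rounding variance the 1 call was Myh6. Over all genes, E15.5 calls numbered 86 in the reported fit (72 higher, 14 lower), 604 with no replicate block, 0 with no rounding variance (1422 at an unadjusted p under 0.05, limma), 1040 with neither, 0 with no pooling (825 unadjusted), 46 and 221 with pseudocounts of 0.5 and 4, 601 with no filter, 0 with a mean of at least 10 (1100 unadjusted), 39 with median-of-ratios scaling (26 higher, 13 lower), and 213 to 506 with 1 sample left out. Adult calls numbered 488 (347 higher, 141 lower; 286 higher and 210 lower with median-of-ratios scaling), with 1130 at no rounding variance, 1622 with neither, 0 with no pooling (431 unadjusted), and 625, 940, 845 and 1285 without mCKO number 1, mCKO number 2, CTR number 1 and CTR number 2 and with no block. The cause of these shifts was not tested. As a percent share, the Myl7 to Myl2 difference was 12.21 percentage points. With 1 sample or both samples numbered 3 left out, that log2 difference ranged from 0.22 to 1.71 and that of Myl4 to Myl3 from 0.36 to 0.97. The adult log2 ratio of Myl4 to Myl3 rests on Myl4 values of 1 to 3 and nothing is read from its difference of 0.76, which was 0.47 with values plus 1 and -0.01531 to 1.542 with 1 sample left out. The adult filter on a mean of at least 10 left no Myl4 or Myl7. Values of a few units, such as adult Myl4 and Myl7, are limited by rounding, and depth is unknown.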
